A study of Mus musculus with 36 samples.

Results

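The 10 genes described here encode parts of the heart muscle cell: Myh6, Tnnt2, Tnni3, Nppa, Actc1, Myl7, Myl4, Sln, Ryr2 and Mybpc3. They were measured in mouse lung RNA and chosen by name as a set of cardiac muscle genes, with earlier results of these data known. All 10 of 10 were found on the arrays, among 36799 gene names, and all 10 were among the 23256 genes tested. Each gene was represented by the probe with the highest mean signal. The values are log2 ratios of lung RNA, labelled with Cy5, over a reference RNA pooled from 11 mouse cell lines and labelled with Cy3, so a value of 0 means a signal equal to that of the reference.

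Lungs came from female C57BL/6 mice, 5 to 7 weeks old, each given a single instillation of tube-shaped titanium dioxide nanoparticles into the trachea. The doses were 0, 18, 54 or 162 µg per animal, and lungs were taken at day 1 or day 28. At day 1 the groups held 4 mice at 0 µg, 3 at 18 µg, 3 at 54 µg and 4 at 162 µg, and at day 28 they held 3 mice at 0 µg and 4 at each of the other doses. The labels name no genotype beyond the strain. Per the labels, RNA was taken from randomly chosen pieces of lung, and the heart was removed from the same animals. In total 29 mice were hybridised to 36 arrays, since 7 mice had 2 arrays each. For 1 mouse, replicate 1 at 162 µg and day 28, the titles say day 1 and the time label says day 28, and it was kept at day 28.

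Heart muscle contracts when calcium, released through the ryanodine receptor, binds the troponin complex on actin filaments and lets myosin pull on them. Atrial and ventricular muscle use partly different versions of these proteins. In the mouse, a sleeve of cardiac muscle of atrial type extends from the heart along the pulmonary veins into the lung, so cardiac transcripts can be part of normal lung tissue. Acta1 encodes skeletal muscle alpha-actin, the main actin of skeletal muscle fibres.

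The lung identity of the samples was plain on every array. Sftpc, the surfactant protein of alveolar type II cells, lay between 6.76 and 8.98 on the log2 ratio scale over the 36 arrays. The share of probes with lung signal clear of background was 48.6% to 62.2% per array. Acta1 divided the arrays: on 12 of them it lay between 5.00 and 7.52 and on the other 24 between -2.69 and -1.77, with no array between these ranges. These 12 and 24 arrays are called arrays with high and low Acta1 below. Of the mice, 10 had high Acta1 on every array, 18 had low Acta1 on every array, and 1 (0 µg at day 1, replicate 1) had 1 array of each. High Acta1 was unevenly spread over the groups. At day 1, at least 1 such array was found in 4 of 4 mice at 0 µg, 1 of 3 at 18 µg, 1 of 3 at 54 µg and 1 of 4 at 162 µg. At day 28 the numbers were 0 of 3 mice at 0 µg, 1 of 4 at 18 µg, 3 of 4 at 54 µg and 0 of 4 at 162 µg.

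The sequences around the start of 4 of the genes and of Acta1 are shown for reference, and any bearing on the levels was not tested. Each runs from 250 bases before to 50 bases after the annotated start, 5′ to 3′, in the GRCm38.p6 build of the RefSeq table. They lie at chr14:54966558-54966857, minus strand (Myh6), chr4:148000472-148000771, plus strand (Nppa), chr11:5898733-5899032, minus strand (Myl7), chr2:114052826-114053125, minus strand (Actc1) and chr8:123894726-123895025, minus strand (Acta1). Capitals mark the 4 motifs searched on both strands: TATAAA, the GATA-type site AGATAA, the CArG box bound by serum response factor, and the MEF2 site.
Myh6: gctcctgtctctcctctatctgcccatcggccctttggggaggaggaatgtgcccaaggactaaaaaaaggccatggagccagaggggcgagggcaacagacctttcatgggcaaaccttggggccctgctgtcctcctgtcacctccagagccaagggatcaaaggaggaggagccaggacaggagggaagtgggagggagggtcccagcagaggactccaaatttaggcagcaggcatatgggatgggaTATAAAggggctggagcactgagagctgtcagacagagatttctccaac
Nppa: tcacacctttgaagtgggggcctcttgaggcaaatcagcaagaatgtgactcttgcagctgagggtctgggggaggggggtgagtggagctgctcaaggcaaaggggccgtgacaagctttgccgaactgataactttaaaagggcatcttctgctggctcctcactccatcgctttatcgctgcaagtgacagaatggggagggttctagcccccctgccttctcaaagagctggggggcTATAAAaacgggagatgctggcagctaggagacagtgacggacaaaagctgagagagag
Myl7: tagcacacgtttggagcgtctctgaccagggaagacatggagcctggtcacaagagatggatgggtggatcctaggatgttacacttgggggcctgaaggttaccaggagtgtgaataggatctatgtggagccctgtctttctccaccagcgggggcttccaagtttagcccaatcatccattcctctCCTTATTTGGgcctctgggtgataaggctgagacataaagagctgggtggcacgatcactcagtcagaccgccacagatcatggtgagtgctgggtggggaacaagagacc
Actc1: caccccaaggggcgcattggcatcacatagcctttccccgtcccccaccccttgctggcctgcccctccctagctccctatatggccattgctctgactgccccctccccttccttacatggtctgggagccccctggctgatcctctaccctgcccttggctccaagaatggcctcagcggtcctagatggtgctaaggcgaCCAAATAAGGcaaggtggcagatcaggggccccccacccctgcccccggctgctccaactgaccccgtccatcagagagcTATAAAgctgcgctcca
Acta1: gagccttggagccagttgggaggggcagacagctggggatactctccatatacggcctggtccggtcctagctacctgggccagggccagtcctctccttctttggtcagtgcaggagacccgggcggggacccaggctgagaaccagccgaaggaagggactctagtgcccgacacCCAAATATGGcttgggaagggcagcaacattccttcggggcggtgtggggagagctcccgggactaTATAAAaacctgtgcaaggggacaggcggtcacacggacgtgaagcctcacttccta
A CArG box stood in the windows of Myl7, Actc1 and Acta1. TATAAA began at position 2 in Myh6 and 34 in Actc1, after the annotated start, and at -9 in Nppa and -7 in Acta1. The table held a promoter for 9 of the 10 genes, of which 2 had a CArG box, 3 had TATAAA, 1, Tnnt2, had AGATAA and 1, Mybpc3, had a MEF2 site. Over all 32851 promoters of this length, the shares were 1.63% for the CArG box, 13.6% for TATAAA, 11.2% for AGATAA and 0.557% for the MEF2 site. No motif overlapped another in the sequences shown. The CArG box was thus present both in genes of the cardiac set and in Acta1.

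Myh6, the fast myosin heavy chain that drives contraction of the atria and of the whole adult mouse heart, varied widely. Over the 36 arrays its log2 ratio ran between 0.24 and 7.56, with a median of 5.79, a 160.0-fold range. It was well above background on all 36 arrays. At day 1 it was 5.88, 6.03, 6.57 and 6.97 in the mice at 0 µg, and 2.78, 3.41 and 4.87 at 18 µg. At 54 µg it was 5.39, 5.45 and 3.18, and at 162 µg it was 3.03, 4.90, 4.93 and 6.87. By ratio the control mice at day 1 thus lay between 5.88 and 6.97, and the mice at 18 µg lay below all of them. In log2 Cy5 signal, after quantile normalization, the control mice lay wider apart, at 13.76, 13.02, 15.70 and 15.38. The mice at 18 µg were at 9.52, 10.36 and 11.82 on that scale. At day 28 the Myh6 ratio was 5.95, 6.32 and 2.68 at 0 µg and 6.18, 5.93, 6.58 and 7.51 at 18 µg. At 54 µg it was 5.48, 6.34, 7.56 and 4.50, and at 162 µg it was 5.99, 2.87, 5.96 and 2.97. All groups of day 28 overlapped, and the 162 µg mice all lay within the range of the control mice.

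Myosin heads also carry light chains. Myl7 and Myl4, the regulatory and essential myosin light chains of the atria, ran between 0.88 and 7.28 and between 0.26 and 8.37 over the arrays. Myl4 at day 1 was 3.59, 3.26, 5.61 and 5.29 at 0 µg and 0.84, 0.84 and 1.62 at 18 µg. It was 2.94, 2.99 and 1.23 at 54 µg and 1.76, 2.15, 2.28 and 4.94 at 162 µg. Every mouse at 18 µg lay below every control mouse. At day 28 it was 3.65, 4.07 and 0.59 at 0 µg and 4.37, 3.57, 4.12 and 6.59 at 18 µg. It was 3.07, 4.21, 8.37 and 1.77 at 54 µg and 3.89, 0.62, 3.49 and 1.00 at 162 µg. The highest value, 8.37, was in replicate 3 at 54 µg, where Myl7 also peaked, at 7.28.

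On the thin filament, Tnnt2 and Tnni3, cardiac troponin T and troponin I, ran between -1.54 and 5.86 and between 0.38 and 7.02. Actc1, the cardiac alpha-actin, had the narrowest range, 1.70 to 3.66. Its Cy5 signal alone, after quantile normalization, spanned 5.56 log2 units, against 1.96 for its ratio, and Myh6 spanned 11.11 against 7.32. Ratios thus spanned less than Cy5 signals for both genes. Mybpc3, cardiac myosin-binding protein C of the thick filament, ran between -3.28 and 3.94. It exceeded the reference RNA on few arrays, with a median of -1.67.

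Nppa encodes the atrial natriuretic peptide, a hormone secreted by atrial muscle, and Sln encodes sarcolipin, which inhibits the calcium pump of atrial and skeletal muscle. Nppa at day 1 was 2.29, 2.47, 4.84 and 4.96 at 0 µg and 0.09, 0.24 and 0.18 at 18 µg. It was 2.60, 1.15 and 0.06 at 54 µg and 1.54, 0.11, 0.62 and 4.61 at 162 µg. At 18 µg all 3 mice thus had ratios near 0, while every other group held at least 1 mouse above 2. Their log2 Cy5 signals were low, at 6.69, 6.90 and 6.77, though flagged well above background on 4 of 4 arrays. At such signal a ratio near 0 need not mean equal transcript levels. At day 28 the Nppa ratio was 2.82, 2.26 and 0.08 at 0 µg and 4.81, 1.18, 3.00 and 5.55 at 18 µg. At 54 µg it was 0.34, 3.35, 6.38 and 0.06, and at 162 µg it was 3.92, 0.29, 1.35 and 0.28. High and low mice stood side by side within each of these groups. The arrays carried 10 spots of the Nppa probe, whose SD within an array was 0.05 to 0.30, against an SD of 1.97 between the 29 mice.

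Sln at day 1 was 5.35, 6.58, 6.69 and 7.38 at 0 µg and 1.47, 1.37 and 7.15 at 18 µg. It was 3.69, 6.69 and 2.37 at 54 µg and 2.22, 3.48, 6.87 and 6.55 at 162 µg. The values of 7.15 at 18 µg, 6.69 at 54 µg and 6.87 at 162 µg belonged to the mouse with high Acta1 of each group. At day 28 it was 5.02, 5.16 and 1.14 at 0 µg, 7.04, 4.93, 5.53 and 7.03 at 18 µg, 6.62, 7.34, 7.83 and 2.49 at 54 µg, and 4.80, 1.14, 4.74 and 1.14 at 162 µg. Ryr2, the calcium release channel of heart muscle, was dim: its Cy5 signal stood well above background on 25 of 36 arrays and its Cy3 signal on 0. Its ratios ran between -0.04 and 4.58, with a median of 0.51. Only replicate 3 at 54 µg and replicate 4 at 18 µg, both of day 28, exceeded 2.

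**Figure D1:**
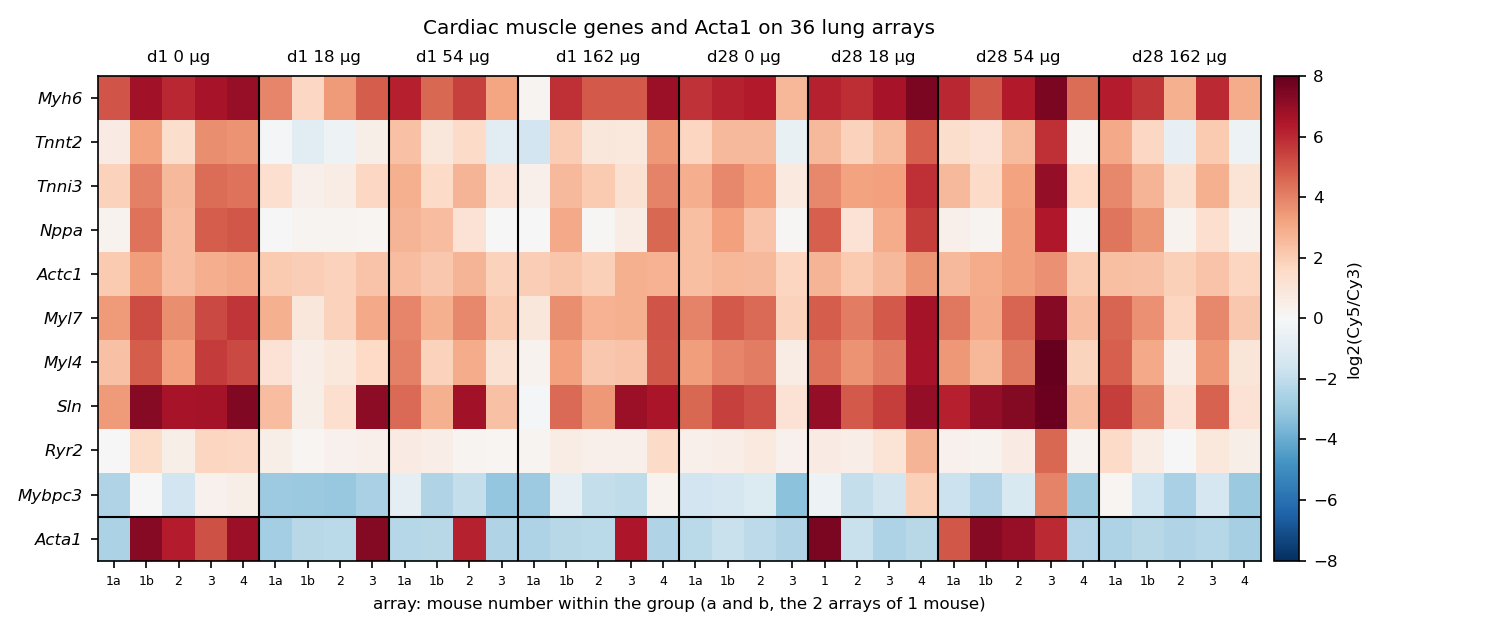
Log2(Cy5/Cy3) of the 10 cardiac muscle genes and Acta1 (rows) on each of 36 arrays (columns), grouped by day and dose, with the 2 arrays of a mouse side by side. The cardiac genes brighten and fade together from array to array, and Acta1 lies between 5.00 and 7.52 on 12 arrays and between -2.69 and -1.77 on the other 24; Myh6 is 7.51 in replicate 4 at 18 µg and day 28, where Acta1 is -2.22.

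**Figure D2:**
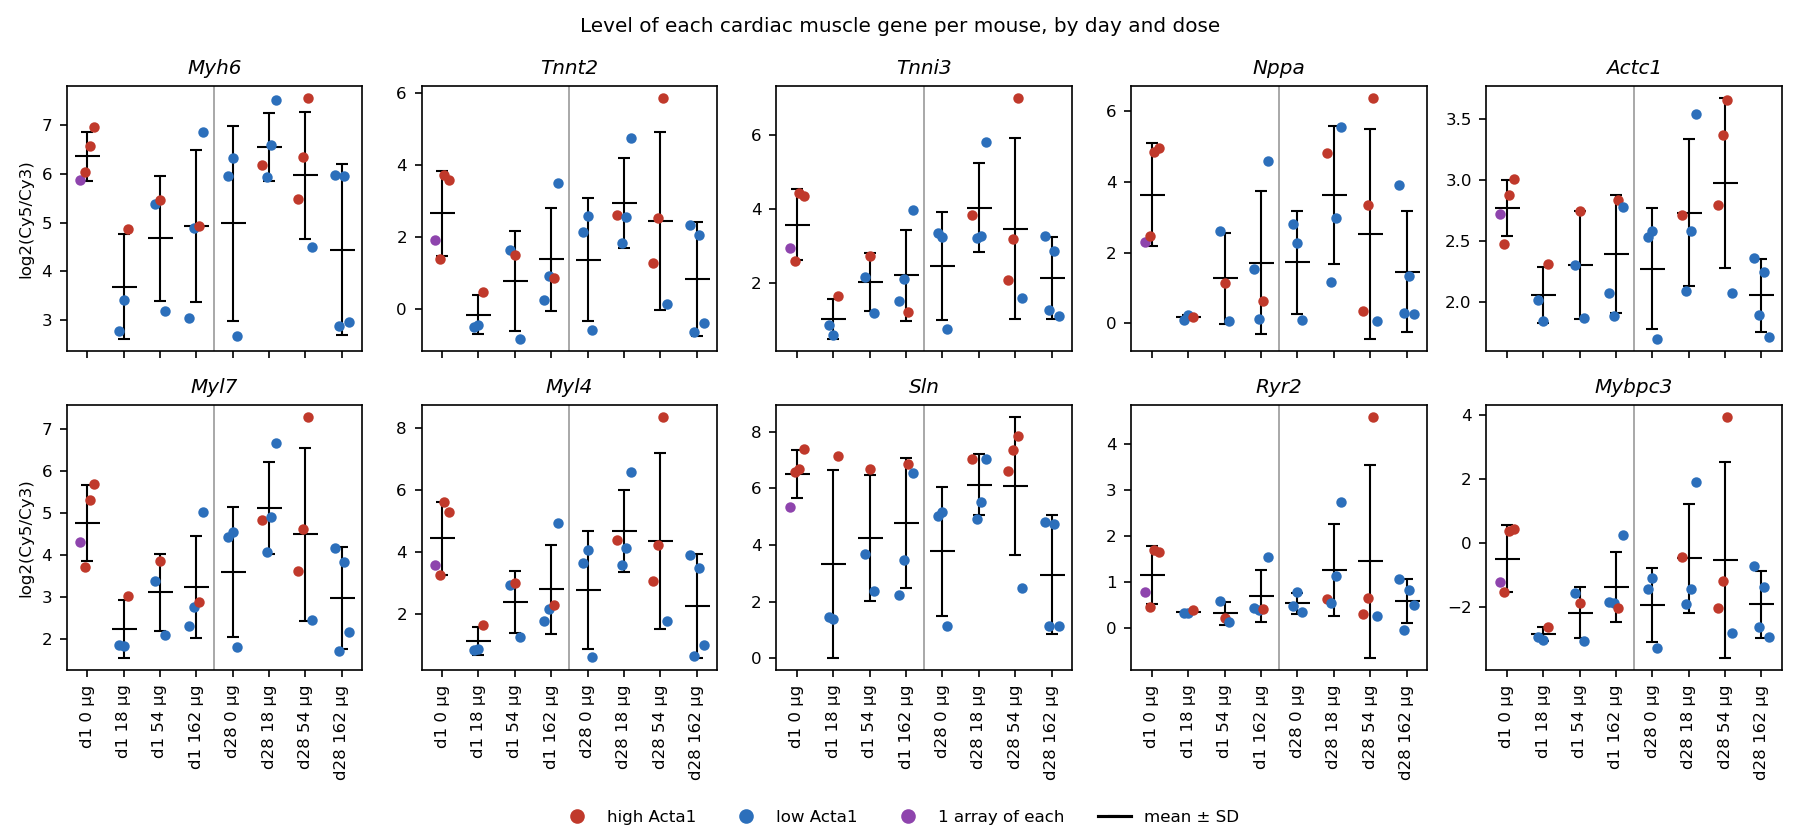
Level of each gene per mouse as log2(Cy5/Cy3) by day and dose; points are mice, coloured by their Acta1 class, and bars are mean ± SD. The 3 mice at 18 µg and day 1 lie between 0.09 and 0.24 for Nppa, below the 4 control mice of day 1, which lie between 2.29 and 4.96.

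The dose comparisons ask whether cardiac transcripts in lung RNA changed after the particles. None of the 10 genes passed the test in any of 10 comparisons (limma, Benjamini-Hochberg adjusted p under 0.05, two-sided), while some other genes did. At 162 µg against 0 µg at day 1 all 10 differences were negative, -1.92 to -0.38 with a median of -1.41, and 0 of 10 were called, where 1.69% of all tested genes were called. The lowest adjusted p among the 10 was 0.474, for Myl7, which averaged 3.24 ± 1.21 at 162 µg and 4.76 ± 0.90 at 0 µg (SD, n = 4 each). The groups overlapped for all 10 genes. With array quality weights, Myh6 (-2.42, adjusted p = 0.0328, limma) and Myl7 (-1.95, adjusted p = 0.0354, limma) were called at 162 µg, 2 of 10 genes, where 20.3% of all tested genes were called. At 54 µg against 0 µg at day 1 the differences were -2.37 to -0.47, with a median of -1.69, and 0 of 10 were called against 0.0516% of all genes. For 3 genes, Myh6, Myl4 and Mybpc3, the 54 µg and 0 µg mice did not overlap, which held for 9.05% of all genes. In quantile-normalized log2 Cy5 signal these groups did overlap for each of the 3 genes. For Myh6 that signal was 13.32 in replicate 1 at 54 µg and 13.02 in replicate 2 at 0 µg.

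At 18 µg against 0 µg at day 1 the differences were largest in size, -3.47 to -0.71 with a median of -2.62. Again 0 of 10 were called, as were 0% of all genes, with an adjusted p of 0.912 for each. At an unadjusted p under 0.05 stood 9 of the 10 genes, against 4.08% of all genes, and for 9 of the 10 the groups did not overlap, against 6.5% of all genes. The 10 genes are correlated across the mice, with a median r of 0.873 over 45 pairs, so these are not counts of independent genes. Myl4 averaged 1.10 ± 0.45 at 18 µg (SD, n = 3) and 4.44 ± 1.19 at 0 µg (SD, n = 4), a difference of -3.34 with a 95% confidence interval of -5.80 to -0.87. Nppa averaged 0.17 ± 0.08 at 18 µg and 3.64 ± 1.46 at 0 µg, a difference of -3.47 (-6.22 to -0.72). The low Nppa signal at 18 µg limits how well the size of this difference is known. Myh6 averaged 3.69 ± 1.07 and 6.36 ± 0.50 in the same groups, a difference of -2.68 (-4.66 to -0.70). Sln was the gene whose groups overlapped, through the mouse with high Acta1. The 3 day 1 comparisons share their control mice, all 4 of which had an array with high Acta1, and its part in these differences was not tested. With the 12 arrays of high Acta1 left out, 1 control mouse remained at day 1, with 1 array. The median difference was then 0.67 at 162 µg, -0.20 at 54 µg and -1.11 at 18 µg. With all arrays kept and the mean of skeletal muscle genes as a covariate, none of these medians changed sign. Among mice with low Acta1, 6 of the 19 genes in that mean had an r with Myh6 above 0.5. The covariate is therefore not independent of the cardiac genes.

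Within slides, which held arrays of 5 to 8 groups each, the median difference of the 10 genes between 162 µg and 0 µg at day 1 was negative on 5 of 5 slides, -2.42 to -0.29. For 54 µg it was 1.12 on slide 1 and -3.70 to -1.61 on the other 3 slides with both groups. For 18 µg it was negative on 4 of 4 slides, -4.12 to -0.55. Slides 1 and 5 held arrays of the same mouse, replicate 1, of each of these day 1 groups, so the slides are not independent. The arrays of a slide are 1 per group, so no test was made within a slide. At day 28 the median was -0.68 to 1.04 for 162 µg, -1.24 to 3.52 for 54 µg and -0.48 to 3.00 for 18 µg, with both signs at each dose.

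At day 28 the same comparisons gave smaller or opposite differences. At 162 µg against 0 µg the 10 differences were -0.81 to 0.05, 0 of 10 were called against 0.628% of all genes, and the groups overlapped for all 10. At 54 µg against 0 µg they were 0.70 to 2.30 with a median of 1.00, and 0 of 10 were called against 0% of all genes. That median was -0.05 without replicate 3 of the 54 µg group, the mouse with the highest Myl4, Nppa and Ryr2 of all. At 18 µg against 0 µg they were 0.46 to 2.36 with a median of 1.57, and 0 of 10 were called against 0% of all genes. Myh6 averaged 6.55 ± 0.69 at 18 µg (SD, n = 4) and 4.99 ± 2.01 at 0 µg (SD, n = 3), a difference of 1.57 with an interval of -0.42 to 3.55. Replicate 3 of the day 28 controls, with a Myh6 of 2.68, was the lowest mouse of that group for each of the 10 genes. Without it the median difference was 0.68 at 18 µg and -1.35 at 162 µg.

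Control mice of day 28 were also set against those of day 1. The differences were -2.73 to -0.50, with a median of -1.33, and 0 of 10 genes were called against 0% of all genes. The median was -0.41 without replicate 3 of day 28 and 0.44 without the arrays of high Acta1. For 1 gene, Sln, the groups did not overlap, which held for 12.5% of all genes. High Acta1 was found in 0 of 3 control mice of day 28 and 4 of 4 of day 1. The day 28 difference minus the day 1 difference was positive for all 10 genes at each dose. Its median was 4.19 at 18 µg, 2.81 at 54 µg and 0.90 at 162 µg, with 0 of 10 genes called at each dose against 0%, 0% and 0.0258% of all genes. Unadjusted p was under 0.05 for 9 of 10 genes at 18 µg and 3 of 10 at 54 µg, against 6.7% and 10.2% of all genes. Because the 10 genes are correlated, these counts too do not rest on independent genes.

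**Figure D3:**
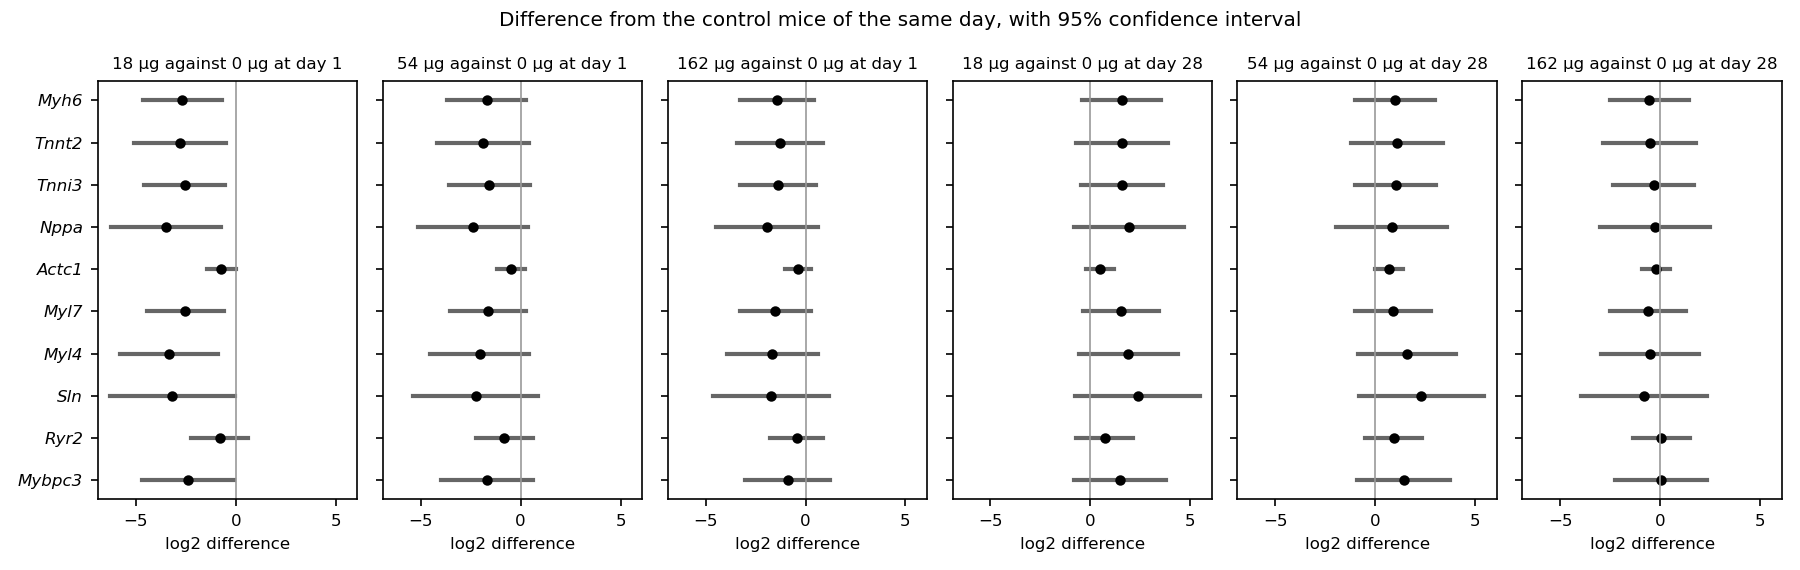
Difference in log2(Cy5/Cy3) between each dose and the control mice of the same day (points) with 95% confidence interval (lines) for the 10 genes, doses from low to high within each day. The differences at day 1 are all negative, -3.47 to -0.71 at 18 µg, and those at 18 µg and day 28 are all positive, 0.46 to 2.36.

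The 10 genes moved together across mice. Against Myh6 over 29 mice, Pearson's r of the other 9 was 0.648 (Ryr2) to 0.941 (Myl7), and Spearman's rho was 0.771 to 0.975. The permutation p, adjusted over these 9 relations, was at most 2e-05 for r and 1e-05 for rho, and 1e-05 is the smallest that 100000 resamples can give. Without the 2 mice farthest from the median Myh6, r was 0.663 to 0.937. Among the 18 mice with low Acta1 it was 0.758 to 0.978, and among the 10 with high Acta1 it was 0.600 to 0.965. Between arrays of 1 slide, r ran between 0.399 and 0.985 over the 4 slides with at least 6 arrays. Over all 45 pairs of the 10 genes, the median r was 0.873 in 29 mice and 0.928 in the 18 mice with low Acta1. The mice share slides and the reference RNA, so these values describe this data set. The genes were chosen with earlier results of these data known, and the permutations ignored group and slide. The p-values are therefore no independent test of the co-movement.

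Their spread was wide among all genes. Since the genes were chosen with earlier results of these data known, the ranks below describe them and test nothing. Over 29 mice the SD was 2.27 for Sln, 1.97 for Nppa, 1.87 for Myl4 and 1.50 for Myh6, while the median SD of all 23256 tested genes was 0.21. By SD of the ratio, Sln ranked 44, Nppa 87, Myl4 108 and Actc1, the least variable of the 10 on that scale, 1535 among these genes. Acta1 ranked 1, with an SD of 4.23. In bulk tissue, fewer cells of a type and less RNA per cell cannot be told apart.

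High cardiac levels occurred with and without high Acta1. Among arrays with low Acta1, the highest value of each of the 10 genes was in replicate 4 at 18 µg and day 28, with Myh6 at 7.51, Myl4 at 6.59, Nppa at 5.55 and Acta1 at -2.22. Replicate 4 at 162 µg and day 1 likewise had Myh6 at 6.87 and Nppa at 4.61 with Acta1 at -2.38. In the other direction, replicate 3 at 18 µg and day 1 had Acta1 at 7.35 with Nppa at 0.18 and Mybpc3 at -2.61. The cardiac genes and Acta1 were thus high together in some mice and apart in others.

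Acta1 formed separate clusters, so its relation to each gene was computed within each class of mice. On the arrays with low Acta1 the gene's Cy5 signal was near background, and 17 of 24 were well above it, so a correlation within that class can say little. Among the 18 mice with low Acta1, r with Acta1 was 0.043 (Ryr2) to 0.418 (Myh6), and rho was 0.176 to 0.422. Among the 10 with high Acta1, r was -0.370 (Myl4) to 0.313 (Sln), and rho was -0.382 to 0.333. None of the 20 relations passed, with an adjusted permutation p of at least 0.571 for r and 0.434 for rho. With the mean of the skeletal muscle list in place of Acta1, 10 of 10 genes passed in the class with low Acta1, with r of 0.786 to 0.957. The genes of that list differed among these 18 mice. Their r with Myh6 was 0.894 for Myl1, 0.795 for Ckm and 0.737 for Eno3, but -0.367 for Myh4 and -0.386 for Ryr1. Over the 19 genes tested the median was 0.207, with 6 above 0.5, so the mean does not stand for skeletal muscle alone. The sign of the weak relations to Acta1 itself was not stable. It turned in 10 of 20 with the quantile-normalized Cy5 signal and in 5 of 20 with median centring. Without the 2 mice farthest from the median Acta1, r was 0.174 to 0.368 in the first class and -0.389 to 0.221 in the second. The relation to Acta1 was not computed within slides.

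Sln differed between the Acta1 classes more than the others. On the 12 arrays with high Acta1 it lay between 6.19 and 7.83, with a median of 7.05, and on the 24 with low Acta1 between -0.11 and 7.03, with a median of 3.79. Actc1 had medians of 2.86 and 2.13 on the same arrays, Myh6 of 6.11 and 5.38, and Ryr2 of 0.54 and 0.51. Sln is also expressed in skeletal muscle, and Actc1 in embryonic skeletal muscle. The cardiac and skeletal alpha-actins are close in sequence, and how far one gene's probe detects the other's transcript was not tested.

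**Figure D4:**
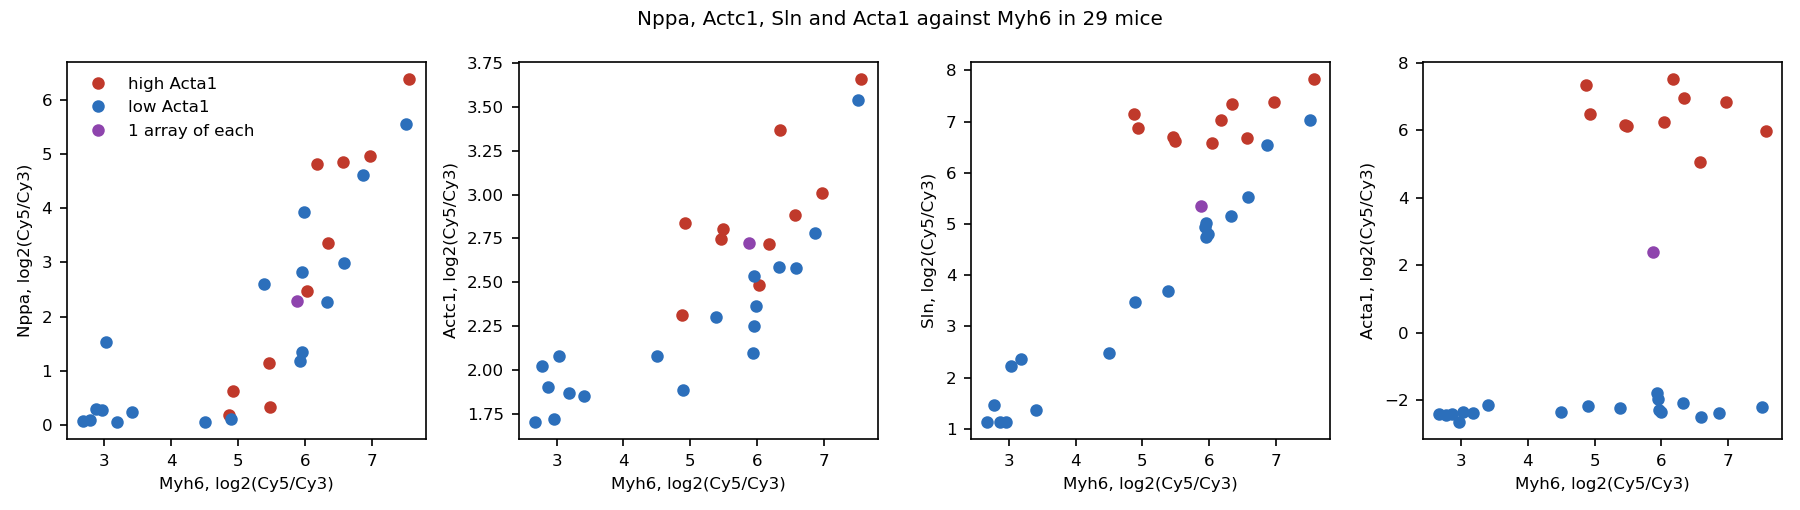
Nppa, Actc1, Sln and Acta1 against Myh6 as log2(Cy5/Cy3), 1 point per mouse, coloured by Acta1 class. Nppa and Actc1 climb with Myh6 in both classes, Sln sits at 6.58 or above in all 10 mice with high Acta1, and Acta1 falls into separate bands.

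Other muscle genes separated the arrays with high Acta1 further. Myl2, the regulatory light chain of ventricular and slow skeletal muscle, was between 4.68 and 5.75 on 6 of these 12 arrays and at most 0.81 on the other 6. On the 24 arrays with low Acta1 it was at most 2.14, with a median of 0.15, although Myh6 had a median of 5.38 there. Krt13, a keratin of squamous epithelium, was between 4.08 and 6.54 on 8 of the 12 arrays and at most -1.54 on the other 28 arrays. On the 5 arrays with Krt13 but without Myl2, median Myh6 was 6.34, and on the 3 with Myl2 but without Krt13 it was 6.03. Of the 5 ventricle markers tested, 2 correlated with Myh6 above 0.5 over 29 mice: Fhl2 at 0.786 and Myl3 at 0.662. The others were Irx4 at 0.451, Myl2 at 0.177 and Myh7, the slow myosin heavy chain shared by ventricle and slow skeletal fibres, at -0.03. Among the 18 mice with low Acta1, Myl3 was at 0.952, Fhl2 at 0.827, Myl2 at 0.482, Irx4 at 0.478 and Myh7 at -0.294. The tested atrial markers outside the 10 genes were no closer to Myh6 over 29 mice. Corin was at 0.507, Bmp10 at 0.376, Kcna5 at 0.282 and Tbx5 at -0.104. Whether the signal came from atrium or ventricle was not tested. Irx4, a ventricular transcription factor, stayed between -0.35 and 0.12 on all 36 arrays. Hcn4, a pacemaker channel, was well above background on 1 of 36 arrays. Bmp10, a signalling factor of the atria, was above background on 14 arrays and reached 0.70. Nppb, the natriuretic peptide of the stretched heart, was at 5.65 on 1 array, that of replicate 3 at 54 µg and day 28, and at most 0.94 on the other 35.

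The genes most like Myh6 over 29 mice, apart from the 10, were Hamp (r = 0.873), Mybphl (0.862), Mb (0.850), Mapk10 (0.845), Scgb3a1 (0.830), Sbk3 (0.828) and Bpifa1 (0.827), and a transcript without a symbol (0.819). Mb encodes myoglobin, the oxygen store of heart and skeletal muscle, and Hamp encodes hepcidin, the iron hormone. Scgb3a1 and Bpifa1 encode proteins secreted by the airway epithelium. Among the 18 mice with low Acta1 the list was Mb (0.985), Csrp3 (0.955), Myl3 (0.952), Tpm1 (0.946), Ckmt2 (0.942), Mybphl (0.933), Hrc (0.923) and Myoz2 (0.915), of which 2 were also on the first list. Csrp3 and Myoz2 encode proteins of the Z-disc, and Myl3 the essential light chain of ventricle and slow muscle. For Acta1 the list began with Tnnc2 (0.998), Myh1 (0.996) and Tnni2 (0.996), all of fast skeletal fibres, and it shared 0 of 8 genes with that of Myh6.

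Of a wider list of 40 cardiac genes, 35 were tested. Correlation with Myh6 exceeded 0.5 for 22 of these 35, or 62.9%, against 2.12% of all tested genes. For skeletal muscle genes it was 2 of 19, for fat genes 5 of 7 and for smooth muscle 1 of 7. It was 0 of 7 for squamous epithelium, and 0 of 8 for both endothelial and alveolar type II genes. Among the 18 mice with low Acta1 it was 25 of 35 wider cardiac genes, against 4.93% of all tested genes. In those mice it was 6 of 19 for skeletal muscle, 4 of 7 for fat and 1 of 7 for squamous epithelium. The fat genes ran from Cox7a1 at 0.841 and Fabp4 at 0.643 down to Ucp1, of brown fat, at 0.198. None of the 35 wider cardiac genes was called in any comparison. Their median difference was -0.82 at 162 µg against 0 µg at day 1 and 1.62 at 54 µg against 0 µg at day 28. Skeletal muscle genes had medians of -2.44 and 3.68 in these comparisons, also with 0 of 19 called.

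Repeat arrays showed how much a value varied within a mouse. For 7 mice there were 2 arrays on different slides, and the labels do not say whether both carried the same RNA extract. In replicate 1 at 162 µg and day 1, Myh6 was 0.24 on slide 1 and 5.82 on slide 5, Sln was -0.11 and 4.55, and Nppa was 0.06 and 3.02. Acta1 was -2.50 and -2.19 on these arrays, so both were of low Acta1, and their ratios over all genes correlated at 0.964. In replicate 1 at 0 µg and day 1, Acta1 was -2.50 on one array and 7.27 on the other, while Nppa was 0.25 and 4.33 and Sln 3.43 and 7.26. Replicate 1 at 0 µg and day 28 varied least, by at most 0.97 for any of the 10 genes.

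The SD between the arrays of 1 mouse was 1.76 for Myh6 and 1.34 between mice within groups, a ratio of 1.31. For the other 9 genes the ratio was 0.50 (Ryr2) to 0.92 (Myl7). The median SD between repeats of all tested genes was 0.18. The median ratio over all tested genes was 0.902, and 8 of the 10 genes lay below it. The Myh6 value rested on replicate 1 at 162 µg and day 1: without that mouse, left out after its values were seen, the SD between repeats was 1.01 and the ratio 0.752. A second probe of Myh6 was well above background on 20 of 36 arrays and correlated with the first at 0.691 over the arrays.

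**Figure D5:**
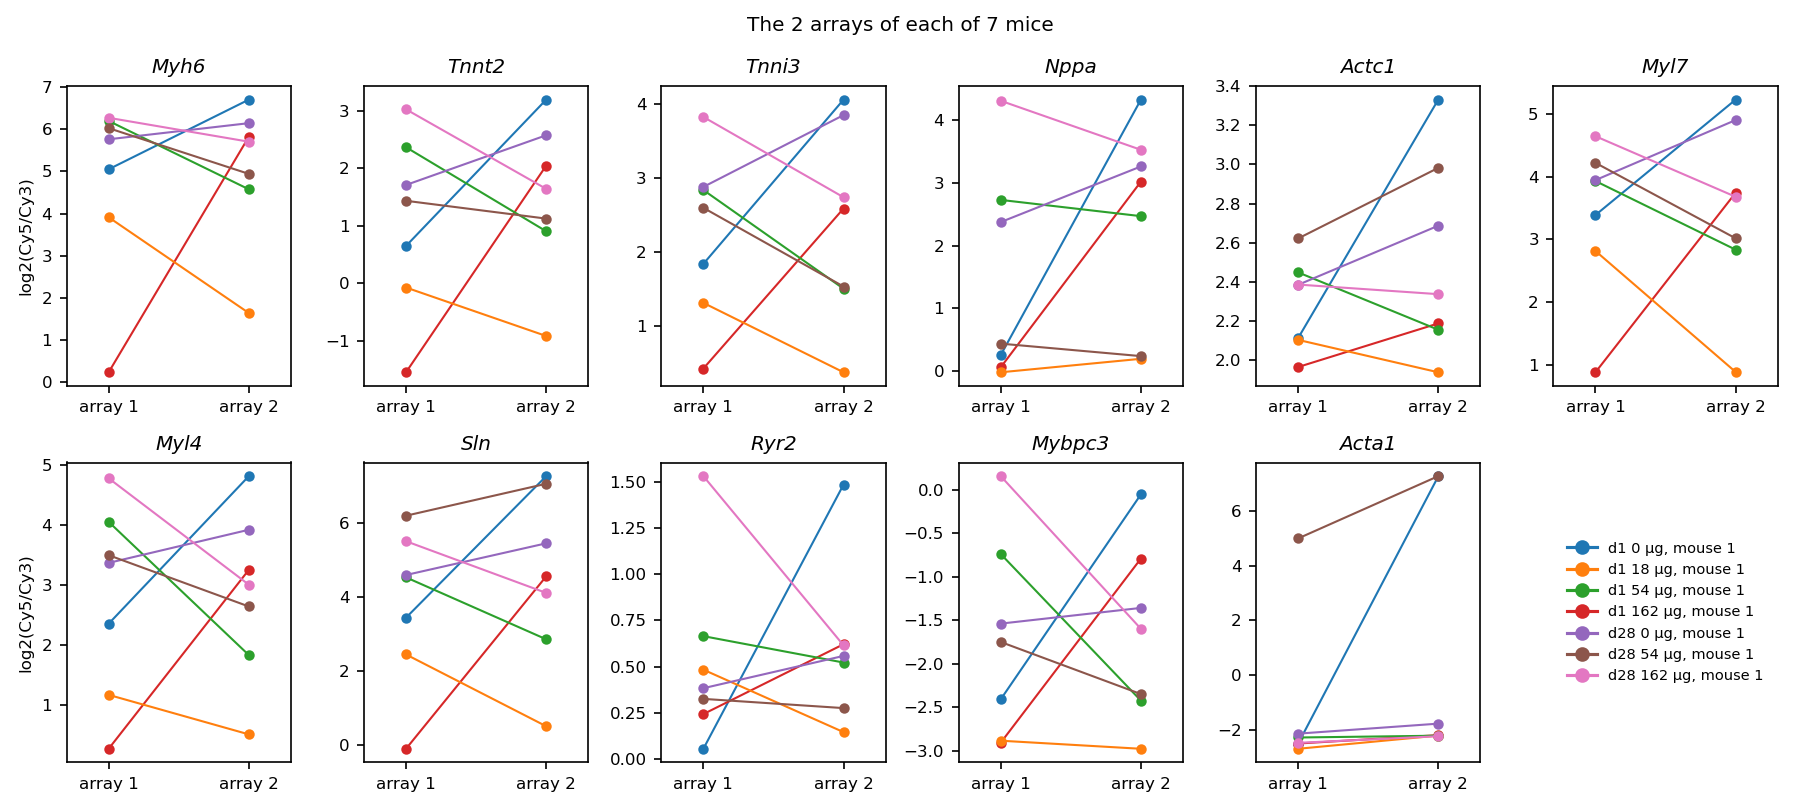
Log2(Cy5/Cy3) on the first and second array of each of the 7 mice with 2 arrays, 1 line per mouse, for the 10 genes and Acta1. Myh6 in replicate 1 at 162 µg and day 1 is 0.24 on one array and 5.82 on the other, and Acta1 differs by over 9 only in replicate 1 at 0 µg and day 1.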

How the data were processed

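The members and gene lists were chosen with earlier results of these data known. Lung RNA of 29 mice was hybridised to 36 arrays against a reference RNA. Per the file headers, the authors quantified spots with Agilent Feature Extraction 11.0.1.1, and the deposited files give spot and background intensity in both dyes. The deposited LogRatio column holds log10 ratios of Cy5 over Cy3, and the deposited value table holds log2 ratios whose normalization is not given in the sources used here. Flags deposited by the authors' scanner software mark spots well above background.

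With R 4.3.3 and limma 3.58.1, background was removed by normexp (offset 50), ratios were normalized by loess within arrays, and spots of a probe were averaged. Control spots had no weight, and 274 spots marked non-uniform were left out. No dyes were swapped. Probes were named through RefSeq accessions and a table of GRCm38.p6, and the probe of highest mean intensity was kept per gene. Genes entered the test when, in some group, 3 or more mice had Cy5 signal clear of background on all their arrays. Arrays of a mouse were averaged, and the 8 group means of 29 mice were estimated together in limma, with 21 residual degrees of freedom, with p-values adjusted over 23256 genes. The arrays' number and signal over background limit the precision. Correlations used 100000 permutations. The text names the 10 genes, Acta1, the 8 genes most correlated with Myh6 and with Acta1, and listed markers. Krt13, Irx4, Hcn4, Bmp10, Nppb, Ucp1 and the second Myh6 probe were chosen for naming after their values were seen. So were Corin, Kcna5, Tbx5, Myl1, Eno3, Ryr1, Cox7a1 and Fabp4. The method was tested on simulated data. Alternatives covered the deposited ratios, normalization, filters, probes, mouse with conflicting labels, arrays, slides, weights and skeletal muscle signal.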

Additional observations from a re-analysis of the deposited data

Results flagged for a closer look

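In 7 of 55 sets of 4 mice tested, 1 mouse lay far from the other 3, where chance flags about 1 in 20 independent sets. The 55 sets are 11 genes in 5 groups, the 10 cardiac genes are correlated and Acta1 falls into separate classes, so the count cannot be read against that rate. In 162 µg mice of day 1, replicate 4 stood above the others with 4.94 for Myl4, 1.55 for Ryr2 and 0.25 for Mybpc3, where the other 3 mice were 1.76 to 2.28, 0.39 to 0.43 and -2.04 to -1.85. In 54 µg mice of day 28, replicate 3 had a Ryr2 of 4.58, with 0.26 to 0.64 in the other 3. For Acta1, replicate 3 of 162 µg at day 1 was at 6.50 and replicate 1 of 18 µg at day 28 at 7.52, while replicate 4 of 54 µg at day 28 was alone in being low, at -2.36.

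At 18 µg every treated mouse lay below the control mean at day 1 and above it at day 28 for 7 genes. The day 28 difference minus the day 1 difference was 4.24 for Myh6, 4.37 for Tnnt2, 4.14 for Tnni3, 4.04 for Myl7, 5.23 for Myl4, 1.52 for Ryr2 and 3.84 for Mybpc3. The test of this difference did not pass for any of the 7 (limma, adjusted p = 0.692 for each).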

How the results depend on the processing

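No paired analysis was possible because replicate numbers only name the mice within a group and the labels do not tie mice of different groups; the slide was entered as a block instead, among the alternatives below. The 10 comparisons were recomputed under 17 alternatives, and with each mouse of the compared groups left out in turn. The count of called cardiac genes stayed at 0 without any single mouse (lowest and highest 0 in each comparison), and under the alternatives other than array quality weights. With those weights 2 genes, Myh6 (-2.42) and Myl7 (-1.95), were called at 162 µg against 0 µg at day 1, and 2 genes, Actc1 (1.08) and Sln (4.84), for the day 28 minus day 1 difference at 54 µg, where 4711 and 3656 of all genes were called, against 393 and 0 without weights; the cause was not tested. Leaving out the 12 arrays with skeletal muscle transcripts turned the sign of 50 of 100 single differences, none of them called; it leaves 1 control mouse at day 1, assumed to vary like the other groups. The median difference was then -0.94 at 54 µg against 0 µg at day 28 and 0.44 for control mice of day 28 against day 1. With the mean of skeletal muscle genes as a covariate, 5 of 100 single differences turned. Of 7 median differences, 0 turned under that covariate. The quantile-normalized Cy5 signal, chosen after seeing the data, turned 2 of 100, and 10 of the 20 relations to Acta1; median centring turned 5 of those 20. For the relation to Acta1, 0 genes passed under each alternative except the skeletal muscle list in place of Acta1, with which 10 of 10 passed among the 18 mice with low Acta1 (r of Myh6 0.786); the cause was not tested. Leaving out each mouse kept 0 in both classes. Signal near background limits Ryr2, and the spread between repeat arrays, 0.50 to 1.31 times that between mice for the 10 genes and 0.902 times at the median of all genes, limits single values.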

Other observations

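Ucp1, the heat-producing protein of brown fat, was between 2.64 and 6.34 on 8 arrays, 5 with high and 3 with low Acta1, and at most 0.60 on the other 28. The array with the highest Myl4 and Nppa had a Ucp1 of 6.34, and that of replicate 4 at 18 µg and day 28 had 2.64. Replicate 1 at 162 µg and day 1, whose Myh6 was 0.24 and 5.82 on its arrays, had a Ucp1 of 0.16 and 4.95 on them. Replicate 2 at 18 µg and day 28 had a Ucp1 of 6.20 with a Myh6 of 5.93.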
